A study of Rattus norvegicus with 4 samples.

Results

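The poly(A) tail machinery is taken here as 49 genes whose symbols were matched exactly in the deposited count files, and all 49 were found among the 22250 genes listed. They comprise 4 CPEB proteins, 7 poly(A) polymerases, 15 cleavage and polyadenylation factors, 5 poly(A)-binding proteins and partners, 11 CCR4-NOT subunits, 3 genes of the PAN2-PAN3 and PARN deadenylases, and 4 BTG/TOB adaptors. The rule uses symbols grouped by function and no footprint value, but the list was proposed with earlier results of these data known. Of the 49, 48 had enough counts to be tested. Cpeb1 was the exception.

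Ribosome footprints, the mRNA fragments that translating ribosomes shield from RNase I, were sequenced from primary ventricular cardiomyocytes of Wistar rats aged 1 to 2 days. There were 2 libraries from cells given CPEB4 siRNA (siCpeb4) and 2 from cells given control siRNA, with silencing for 72 h. A 24 h exposure to 250 nM Torin1, an inhibitor of the mTOR kinase, stands in the growth protocol shared by all 4 libraries. The protocol does not state which libraries received Torin1. The labels do not say whether the replicates were separate cultures, so p-values measure the spread between these libraries, which may be technical.

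Most mRNAs receive a poly(A) tail in the nucleus, after the cleavage machinery has cut the new transcript. In the cytoplasm, poly(A)-binding proteins coat the tail and promote translation, while deadenylases shorten it, which leads to repression and decay. CPEB proteins bind mRNAs through their 3′ untranslated regions and recruit polymerases or deadenylases, so that translation of their targets is switched on or off. The comparison of siCpeb4 with control cells shows how ribosome occupancy of this machinery stands when 1 of its RNA-binding proteins is depleted.

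Footprints counted in genes numbered 4889212 and 5910911 in the siCpeb4 libraries, and 5863879 and 3554011 in the control libraries. The siCpeb4 replicate 2 library was counted from footprints of 29 to 33 nt, and the other libraries from 29 to 34 nt. Cardiomyocyte markers summed to 54417 and 49503 CPM (counts scaled to the same library total) in siCpeb4 libraries and to 50078 and 53285 CPM in control libraries, so markers of the labelled cell type were abundant in all 4 libraries. The 8 fibroblast markers summed to 9712 and 9170 CPM in siCpeb4 libraries, against 13079 and 12048 CPM in control libraries. Most of that difference lay in Col1a1 (6072 and 5374 CPM, against 8586 and 7867 CPM). Of the 7 fibroblast markers that were tested, 6 had a negative log2 fold change. Only Col1a1 was called (-0.55, edgeR adjusted p = 0.00339), where 3.41% of all tested genes were called. Col1a2 was listed at 0 in every library. Positive log2 fold changes were also few among cardiomyocyte (1 of 7 tested), endothelial (1 of 5) and epicardial markers (1 of 4). There were 3 of 6 among leukocyte markers and 5 of 6 among smooth muscle and pericyte markers. Endothelial markers summed to 115 and 122 CPM in siCpeb4 libraries, against 141 and 115 CPM in control libraries. Leukocyte markers summed to 411 and 561 CPM, against 649 and 429 CPM. Epicardial markers summed to 271 and 243 CPM in siCpeb4 libraries, against 301 and 320 CPM in control libraries, and 0 of 4 tested were called. Most of that difference lay in Msln (186 and 150 CPM, against 216 and 218 CPM). Smooth muscle and pericyte markers summed to 5824 and 6212 CPM in siCpeb4 libraries, against 5520 and 5534 CPM in control libraries, and 0 of 6 were called. There Acta2 had 4373 and 4797 CPM, against 3990 and 4051 CPM, while Tagln had 1125 and 1064 CPM, against 1194 and 1176 CPM. The part of these differences in the results that follow was not tested. In such bulk footprint libraries, fewer cells of a type cannot be told apart from less RNA per cell or less translation of that RNA.

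Cpeb4 itself had 40 and 59 footprints in the siCpeb4 libraries, against 351 and 253 in the control libraries. Scaled to the library total, that was 8.18 and 9.98 CPM in siCpeb4 cells and 59.9 and 71.2 CPM in control cells. The knockdown was thus present in both libraries, with no overlap between groups. In the edgeR quasi-likelihood test the log2 fold change was -2.86 ± 0.17 (SE; edgeR adjusted p = 1.57e-09). This was the smallest p among the 11335 genes tested. After Cpeb4 siRNA, 4 of the 48 tested members were called, Cpeb4 included, where 3.41% of all tested genes were called. The remaining 44 tested members were not called. In DESeq2 only Cpeb4 and Cnot6l of the 4 were called.

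The 4 called members are spread over 3 roles. Cpeb4 and the deadenylase gene Cnot6l fell, and Cpeb3 and the adaptor gene Tob1 rose. They are 8.33% of the 48 tested members, where 3.41% of all tested genes were called in either direction (1.54% higher and 1.87% lower, at an edgeR adjusted p under 0.05). Without the siRNA target the count was 3 of 47, or 6.38%. The excess over the background is therefore made of few genes, and since the list was proposed with results known, it is a description and not a test. At an unadjusted edgeR p under 0.05, 8 of 48 members passed (16.7%), close to the 16.1% of all genes tested. The median log2 fold change was 0.019 for the tested members, against -0.0031 for all genes tested. The medians thus lay close together.

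**Figure D1:**
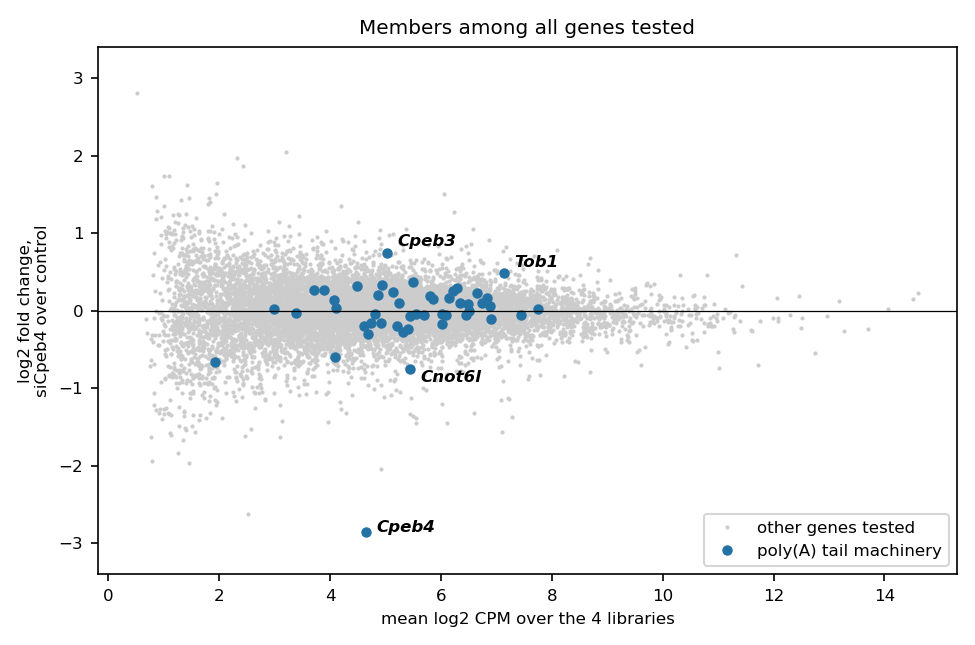
Each point is a gene, placed by its mean log2 CPM over the 4 libraries (horizontal) and its log2 fold change, siCpeb4 over control (vertical). Blue points are the 48 tested members and grey points the other tested genes. The 4 called members are named, and Cpeb4 lies at -2.86, far below the rest of the machinery.

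The CPEB family held the largest changes in both directions. CPEB4, CPEB3 and CPEB2 form the branch of closely related paralogues, and CPEB1 is the more distant member that was first described in frog oocytes. Cpeb3 had 227 and 225 counts in siCpeb4 libraries, against 152 and 81 in control libraries. These are 46.4 and 38.1 CPM in siCpeb4 cells and 25.9 and 22.8 CPM in control cells, so every siCpeb4 value lay above every control value. Cpeb3 rose 1.68-fold, with a log2 fold change of 0.75 ± 0.16 (SE, 95% interval 0.42 to 1.08; edgeR adjusted p = 0.00918). The call was lost without siCpeb4 replicate 1, the library with the higher level (log2 fold change 0.59, edgeR adjusted p = 0.0824). DESeq2 did not call it either (adjusted p = 0.0531). Over 13 alternative settings the adjusted p of Cpeb3 ran from 0.000314 to 0.0824.

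Cpeb2 had 35.4 and 33.0 CPM in siCpeb4 libraries, against 25.8 and 27.6 CPM in control libraries. Its groups did not overlap either, yet it was not called (log2 fold change 0.33 ± 0.16, SE; edgeR adjusted p = 0.30). Its 95% interval, not adjusted for the number of genes tested, ran from 0.0071 to 0.66. Cpeb1 was close to the detection limit, with 3 and 15 counts in siCpeb4 libraries and 10 and 5 in control libraries. These values overlap and swing more within a group than between groups. Without the low-count filter its log2 fold change was 0.022 ± 0.66 (SE; edgeR adjusted p = 0.991).

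The family can also be read as a pool of footprints. Cpeb1, Cpeb2 and Cpeb3 together had 82.4 and 73.6 CPM in siCpeb4 libraries, against 53.4 and 51.8 CPM in control libraries. With Cpeb4 included, the sum was 90.6 and 83.6 CPM in siCpeb4 cells, against 113 and 123 CPM in control cells. The sum with Cpeb4 included was thus lower in siCpeb4 libraries. Levels of different genes were not set against each other per length, since coding lengths were not used here. The sums therefore do not weigh the paralogues against Cpeb4. Within the pair Cpeb2 and Cpeb3, Cpeb3 made up 56.8% and 53.6% of footprints in siCpeb4 libraries, against 50.2% and 45.3% in control libraries. The group means were 55.2 ± 2.25% and 47.7 ± 3.47% (SD, n = 2 each), in that order of groups. The exact 95% binomial interval of siCpeb4 replicate 2 (48.7% to 58.4%) overlaps that of control replicate 1 (44.4% to 55.9%), so the shift was not resolved library by library. With 2 libraries a group, an exact permutation test cannot go below p = 0.333.

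**Figure D2:**
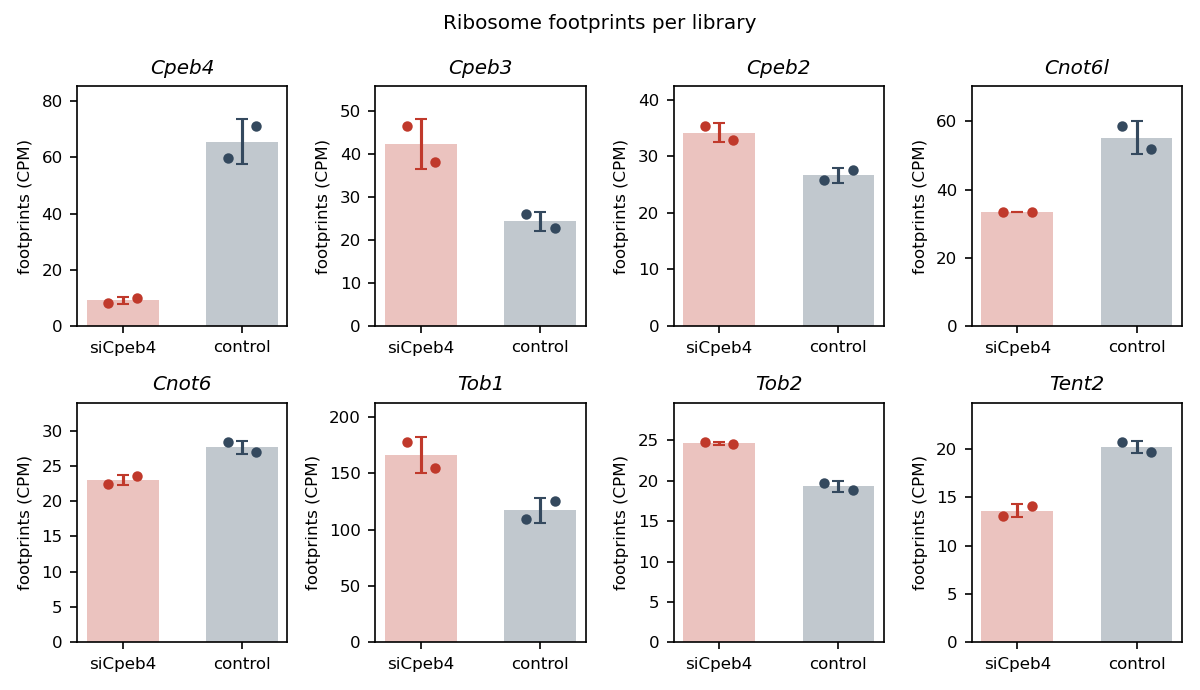
Bars show the mean footprint level in CPM (vertical axes, from 0) of siCpeb4 (left) and control (right) libraries, error bars 1 SD, and points the 2 libraries of each group, for 8 genes. The 8 were picked for display and all belong to the 27 tested members whose groups do not overlap. Such absence of overlap was seen in 46.0% of all tested genes. Only Cpeb4, Cpeb3, Cnot6l and Tob1 were called.

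Absence of overlap was common, and it is no call in itself. Values of the siCpeb4 libraries lay wholly outside the control range in 27 of the 48 tested members (56.3%), where 46.0% of all tested genes showed the same. Of these members, 16 were higher and 11 lower in siCpeb4 libraries, which is 33.3% and 22.9% of those tested. The background was 26.5% higher and 19.5% lower. On this CPM scale the direction of the members thus leaned the way that all genes leaned. The normalised edgeR fit did not lean that way over all tested genes. There the median log2 fold change was -0.0031, with 1.54% called higher and 1.87% called lower.

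Cnot6l carried the clearest change outside the CPEB family. CNOT6L and its paralogue CNOT6 are alternative catalytic subunits of CCR4-NOT, the main cytoplasmic deadenylase complex. Cnot6l had 164 and 198 counts in siCpeb4 libraries, against 344 and 184 in control libraries. On the CPM scale these were 33.5 in both siCpeb4 libraries, against 58.7 and 51.8 in control libraries. The siCpeb4 libraries were nearly equal and both lay below the controls. Cnot6l fell by 0.76 on the log2 scale, to 0.592 of the control level (SE 0.14, 95% interval -1.04 to -0.47; edgeR adjusted p = 0.00201). It was called in all 13 alternatives, with adjusted p from 3.48e-05 to 0.0474, the highest without control replicate 1.

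Its paralogue Cnot6 had 22.5 and 23.5 CPM in siCpeb4 libraries, against 28.3 and 27.0 CPM in control libraries. These groups did not overlap either, with a log2 fold change of -0.30 ± 0.17 (SE, 95% interval -0.65 to 0.052; edgeR adjusted p = 0.413), and Cnot6 was not called. Cnot6l made up 59.9% and 58.8% of the pair's footprints in siCpeb4 libraries, against 67.5% and 65.7% in control libraries. The difference of the group means was -7.28 percentage points, with means of 59.3 ± 0.778% in siCpeb4 and 66.6 ± 1.23% in control libraries (SD, n = 2 each). It kept its sign without any 1 library, between -8.15 and -6.41 points. The exact intervals still overlapped, 53.8% to 65.7% in siCpeb4 replicate 1 and 63.2% to 71.5% in control replicate 1.

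CNOT7 and CNOT8 are the other pair of catalytic paralogues in the complex. Cnot8 made up 77.2% and 78.2% of that pair in siCpeb4 libraries, against 75.8% and 78.4% in control libraries. The difference was 0.635 points and its sign turned without control replicate 1 (-0.675 points). Cnot7 and Cnot8 were both uncalled.

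**Figure D3:**
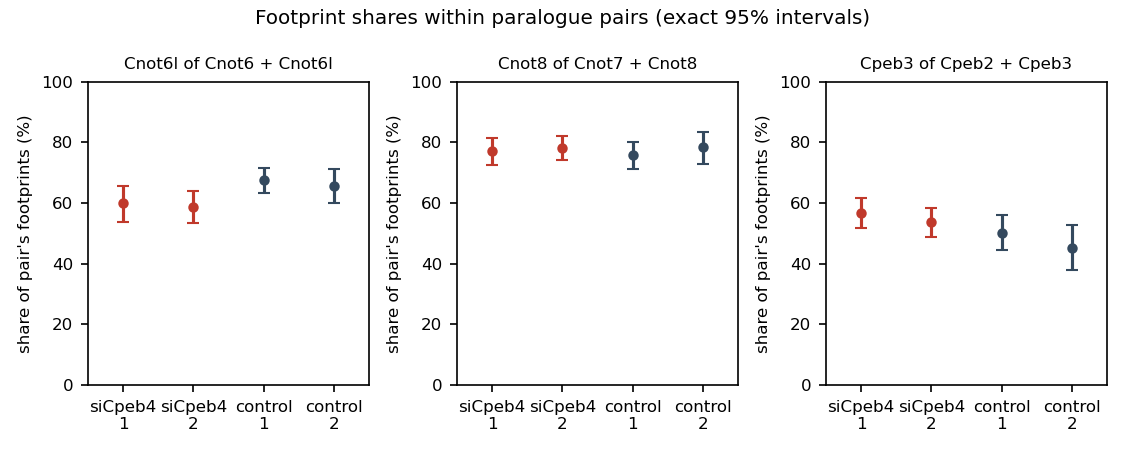
Points give the share of a paralogue pair's footprints, in percent, that fell on the first-named gene in each library, siCpeb4 left (red) and control right (dark), with exact 95% binomial intervals that cover counting error only. The Cnot6l share is 59.9% and 58.8% in siCpeb4 libraries against 67.5% and 65.7% in control libraries, while the Cnot8 shares of the groups overlap.

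Among the remaining CCR4-NOT genes none was called, where 3.41% of all tested genes were called. Absence of calls in so short a list says little about the complex. Cnot2, whose product forms the module that docks the complex on target mRNAs together with CNOT3, had 82.4 and 90.2 CPM in siCpeb4 libraries, against 67.9 and 70.6 CPM in control libraries. Its log2 fold change was 0.29 ± 0.12 (SE; edgeR adjusted p = 0.213). Cnot11, a subunit of the module with CNOT10, had 38.9 and 38.6 CPM in siCpeb4 libraries, against 42.5 and 47.3 CPM in control libraries (-0.23 ± 0.14, SE; edgeR adjusted p = 0.437). The scaffold gene Cnot1 had 158 and 186 CPM in siCpeb4 libraries and 160 and 191 CPM in control libraries, so its replicates differed far more than its groups. Of the 10 uncalled subunits, 9 had an edgeR 95% interval, unadjusted, inside a 1.5-fold change either way. The 11 subunits summed to 560 and 601 CPM in siCpeb4 libraries, against 571 and 600 CPM in control libraries. The sum of the complex therefore did not separate the groups, although Cnot6l did.

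The adaptor genes of the BTG/TOB family lay higher as a sum, and Tob1 carried most of it. TOB1 and TOB2 bridge the CNOT7 or CNOT8 deadenylase to the cytoplasmic poly(A)-binding protein, and in cultured mammalian cells TOB1 has been described to link the deadenylase to CPEB3. Tob1 had 178 and 155 CPM in siCpeb4 libraries, against 109 and 125 CPM in control libraries. No siCpeb4 value fell into the control range. Tob1 rose 1.39-fold, with a log2 fold change of 0.48 ± 0.12 (SE, 95% interval 0.23 to 0.72; edgeR adjusted p = 0.0242). The call ended without siCpeb4 replicate 1 (adjusted p = 0.126), without control replicate 1 (adjusted p = 0.346) and in DESeq2 (adjusted p = 0.054), within a range of 0.00342 to 0.346 over the 13 alternatives.

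Tob2 had 24.7 and 24.5 CPM in siCpeb4 libraries, against 19.8 and 18.9 CPM in control libraries. Its replicates were close and its groups apart, but at 67 to 145 counts a library it was not called (log2 fold change 0.32 ± 0.18, SE; edgeR adjusted p = 0.411). The antiproliferative genes Btg1 and Btg2 gave no call. Btg1 had 80.6 and 88.8 CPM in siCpeb4 libraries and 80.3 and 74.8 CPM in control libraries (0.095 ± 0.12, SE). Btg2, also a target of p53, had 42.1 and 59.9 CPM in siCpeb4 libraries and 48.8 and 56.6 CPM in control libraries (-0.059 ± 0.15, SE). The siCpeb4 values of Btg2 enclose the control values. The 4 adaptors summed to 325 and 328 CPM in siCpeb4 libraries, against 258 and 275 CPM in control libraries.

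Poly(A) polymerases gave values on both sides of 0 and no call among 7 tested, where 3.41% of all tested genes were called. TENT2, also known as GLD2, is the cytoplasmic polymerase that lengthens tails in complexes with CPEB1 in frog oocytes. Tent2 had 64 and 83 counts in siCpeb4 libraries, against 121 and 70 in control libraries, or 13.1 and 14.0 CPM against 20.6 and 19.7 CPM. Both siCpeb4 levels lay clearly below both control levels. Its log2 fold change was -0.60 ± 0.20 (SE, 95% interval -1.02 to -0.19), the lowest adjusted p among uncalled members (edgeR adjusted p = 0.109). It was called in none of the 12 alternatives that gave it an adjusted p, which ran from 0.0711 to 0.481.

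TENT4B adds mixed tails and serves in nuclear RNA surveillance. Tent4b had 46.0 and 56.5 CPM in siCpeb4 libraries, against 34.8 and 44.5 CPM in control libraries (log2 fold change 0.37 ± 0.15, SE; edgeR adjusted p = 0.22). The spread between replicates was about as wide as the gap between groups. Tent5a, which encodes a cytoplasmic polymerase acting on mRNAs of secreted proteins, had 34.8 and 37.9 CPM in siCpeb4 libraries, against 45.0 and 41.1 CPM in control libraries (-0.28 ± 0.14, SE; edgeR adjusted p = 0.341). Papola encodes the canonical nuclear polymerase. It had 101 and 118 CPM in siCpeb4 libraries, against 90.9 and 93.1 CPM in control libraries (0.22 ± 0.12, SE; edgeR adjusted p = 0.355). The other 3 polymerase genes, Tent4a, Tent5c and Papolg, had log2 fold changes between -0.036 and 0.27.

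The nuclear cleavage and polyadenylation factors showed no call among 15 tested, and none of the 15 had an unadjusted edgeR p under 0.05. Of all tested genes, 3.41% were called and 16.1% had such a p. CPSF recognises the polyadenylation signal and cuts the transcript, CstF binds downstream of the cut, and the cleavage factors I and II take part in site choice and in termination. Cstf1, a CstF subunit, had 80.6 and 81.4 CPM in siCpeb4 libraries, against 59.9 and 74.8 CPM in control libraries (log2 fold change 0.25 ± 0.13, SE; edgeR adjusted p = 0.353). Here the controls differed from each other by more than the higher control differed from the siCpeb4 libraries. Fip1l1, which encodes the CPSF subunit that brings in the polymerase, had 126 and 118 CPM in siCpeb4 libraries, against 109 and 104 CPM in control libraries (0.16 ± 0.11, SE; edgeR adjusted p = 0.513).

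Cpsf6, of cleavage factor I, had 60.7 and 61.7 CPM in siCpeb4 libraries, against 66.8 and 68.1 CPM in control libraries (-0.17 ± 0.12, SE; edgeR adjusted p = 0.547). Cpsf4, whose product contacts the polyadenylation signal, had the lowest counts of the group. It had 8 and 22 counts in siCpeb4 libraries and 23 and 17 in control libraries (-0.66 ± 0.43, SE; edgeR adjusted p = 0.484). Its 95% interval ran from -1.54 to 0.22, so a fall of more than 2-fold lay within it. The estimate rested on single libraries, at -0.24 without siCpeb4 replicate 1 and -1.39 without siCpeb4 replicate 2. The remaining 11 factors had log2 fold changes between -0.20 and 0.26. For 13 of the 15 the unadjusted edgeR interval lay inside a 1.5-fold change either way. The 15 factors summed to 915 and 935 CPM in siCpeb4 libraries, against 871 and 889 CPM in control libraries, a ratio of 1.05.

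Poly(A)-binding proteins gave the narrowest band of log2 fold changes of the 7 roles, from -0.11 to 0.02. PABPC1 is the main cytoplasmic protein on the tail, PABPC4 a paralogue, PABPN1 its nuclear counterpart, and PAIP1 and PAIP2 are partners, of which PAIP1 favours and PAIP2 hinders its action in translation. Pabpc1 had 211 and 224 CPM in siCpeb4 libraries and 211 and 209 CPM in control libraries, with a log2 fold change of 0.02 ± 0.10 (SE; edgeR adjusted p = 0.951). Its 95% interval ran from -0.19 to 0.23. Pabpc4 had 63.6 and 64.6 CPM in siCpeb4 libraries and 64.0 and 65.6 CPM in control libraries (-0.042 ± 0.12, SE).

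Paip1 had 117 and 116 CPM in siCpeb4 libraries and 133 and 113 CPM in control libraries (-0.11 ± 0.11, SE). Paip2 had 62.6 and 70.9 CPM in siCpeb4 libraries and 70.4 and 65.6 CPM in control libraries (-0.058 ± 0.12, SE). The groups overlapped in all 5 genes of this class, and none had an unadjusted edgeR p under 0.05. Of all tested genes, 46.0% had groups that did not overlap, and only 16.1% had such a p. All 5 intervals lay between -0.35 and 0.23, inside a 1.5-fold change either way. Together they summed to 545 and 565 CPM in siCpeb4 libraries, against 567 and 544 CPM in control libraries.

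The deadenylases outside CCR4-NOT gave no call either, and their groups overlapped in 3 of 3 genes. Of all tested genes, only 3.41% were called, and 46.0% had groups that did not overlap. PAN2 and PAN3 trim long tails first, and PARN acts largely on nuclear noncoding RNAs. Pan2 had 34.4 and 41.6 CPM in siCpeb4 libraries and 28.99 and 34.9 CPM in control libraries (log2 fold change 0.24 ± 0.16, SE; edgeR adjusted p = 0.49). Parn had 33.1 and 46.0 CPM in siCpeb4 libraries, a range that took in both control values of 37.2 and 35.2 CPM (0.10 ± 0.16, SE). Pan3 was low, with 34 and 47 counts in siCpeb4 libraries and 35 and 32 in control libraries (0.017 ± 0.30, SE).

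**Figure D4:**
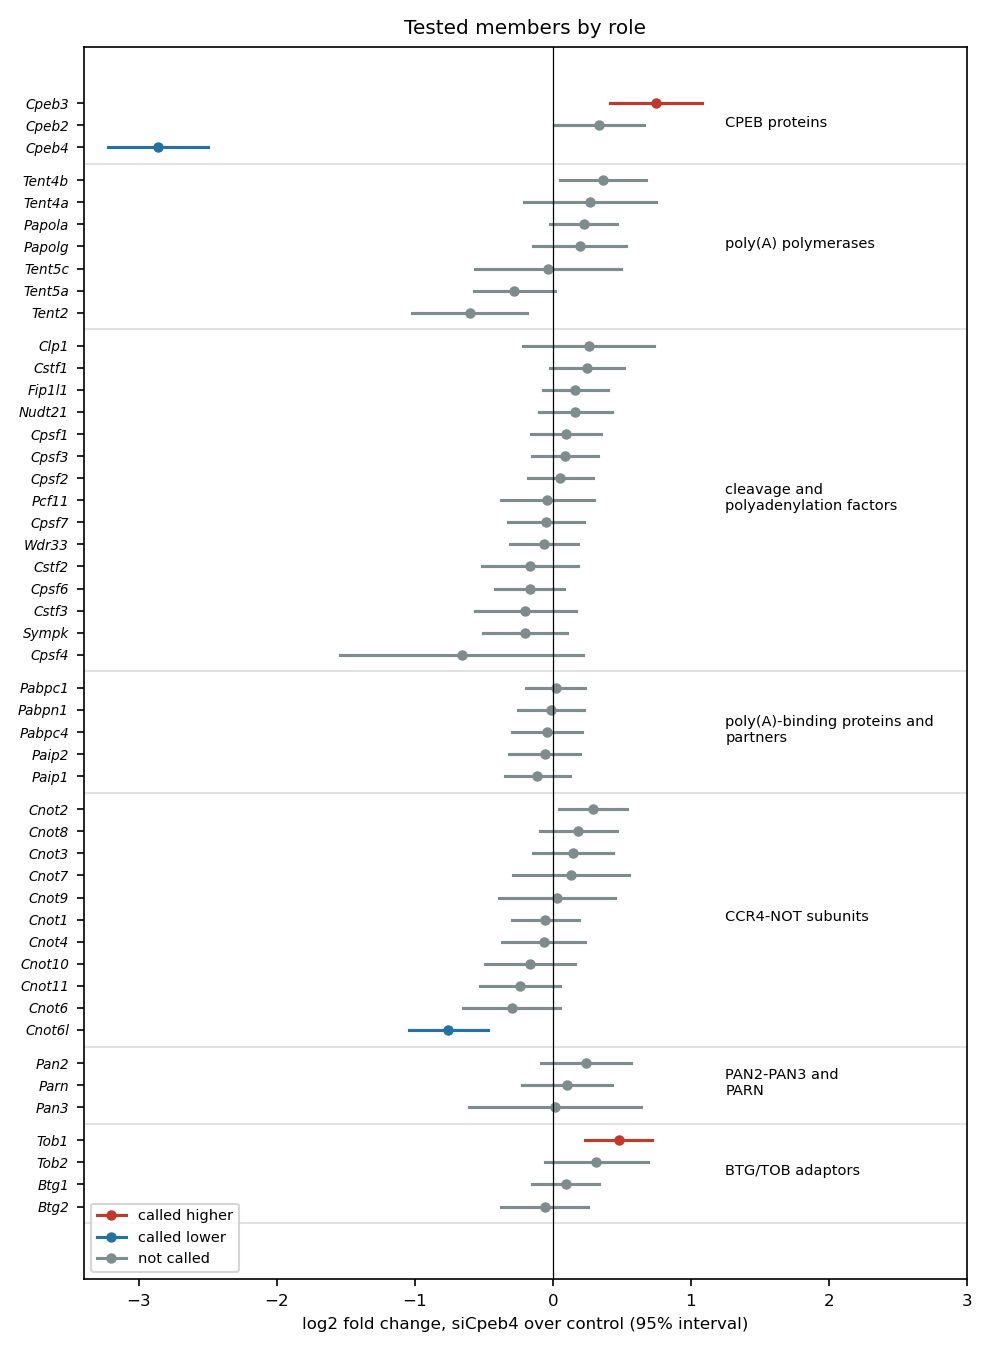
Points are log2 fold changes, siCpeb4 over control (horizontal), of the 48 tested members with 95% intervals, grouped by role. Red marks the 2 called higher, blue the 2 called lower and grey the 44 uncalled; intervals widen for genes with few counts, such as Cpsf4, and are narrowest for abundant ones such as Pabpc1.

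Across roles, 35 of the 44 uncalled members had an edgeR 95% interval inside a 1.5-fold change either way. These intervals are not adjusted for the number of genes tested, and their width depends on the fit. The matching share over all tested genes was not computed. Such counts, here and in the single roles, therefore do not set the machinery apart from other genes. DESeq2 gave wider standard errors, such as 0.209 for Cnot11 and 0.233 for Pan2, against 0.139 and 0.157 in edgeR. The same count was not made with DESeq2. For the other 9 the edgeR interval reached past that size in at least 1 direction. Standard errors of the tested members ran from 0.10 for Pabpc1 to 0.43 for Cpsf4. No member beyond Cpeb4, Cnot6l, Cpeb3 and Tob1 was called in any of the 13 alternative settings that gave it an adjusted p. Among the tested named members, DESeq2 gave none for Tent2, Cpsf4 and Pan3. The stricter count filter gave none for Cpsf4. Those settings could not call these genes.

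Beyond the 49 members, 3 further lists of related genes were examined, chosen like the members with earlier results of these data known. With 3.41% of all tested genes called, 1 of 20 tested genes of other poly(A) tail and 3′ end functions was called, namely Larp4b. Its product binds poly(A)-binding protein and stabilises mRNAs. Larp4b had 74.2 and 72.4 CPM in siCpeb4 libraries, against 100 and 112 CPM in control libraries (log2 fold change -0.56 ± 0.12, SE; edgeR adjusted p = 0.00831). The groups were well apart, but the call ended without siCpeb4 replicate 2 (adjusted p = 0.0624) or control replicate 2 (adjusted p = 0.107), the range over the alternatives being 0.000816 to 0.107. In that list the mitochondrial poly(A) polymerase gene Mtpap came next, with 28.0 and 33.2 CPM in siCpeb4 libraries, against 22.9 and 18.6 CPM in control libraries (0.52 ± 0.18, SE; edgeR adjusted p = 0.117).

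None of 18 tested genes of decapping and decay from the 5′ end was called. The smallest p in that list were those of the decapping cofactor gene Dcp1a (log2 fold change 0.39 ± 0.15, SE; edgeR adjusted p = 0.172) and of Lsm4, of the ring that binds shortened tails (-0.33 ± 0.13, SE; edgeR adjusted p = 0.19). None of 11 tested regulators that meet CPEB or CCR4-NOT was called. There Rc3h2, encoding a Roquin that recruits the deadenylase (0.26 ± 0.13, SE; edgeR adjusted p = 0.335), and the cap-binding inhibitor gene Eif4ebp1 (-0.18 ± 0.12, SE; edgeR adjusted p = 0.493) had the smallest p. The medians of the 3 lists were 0.058, 0.036 and -0.054 on the log2 scale. With 3.41% of all tested genes called, lists of this size would hold few calls or none. The call counts therefore say little about the lists.

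**Figure D5:**
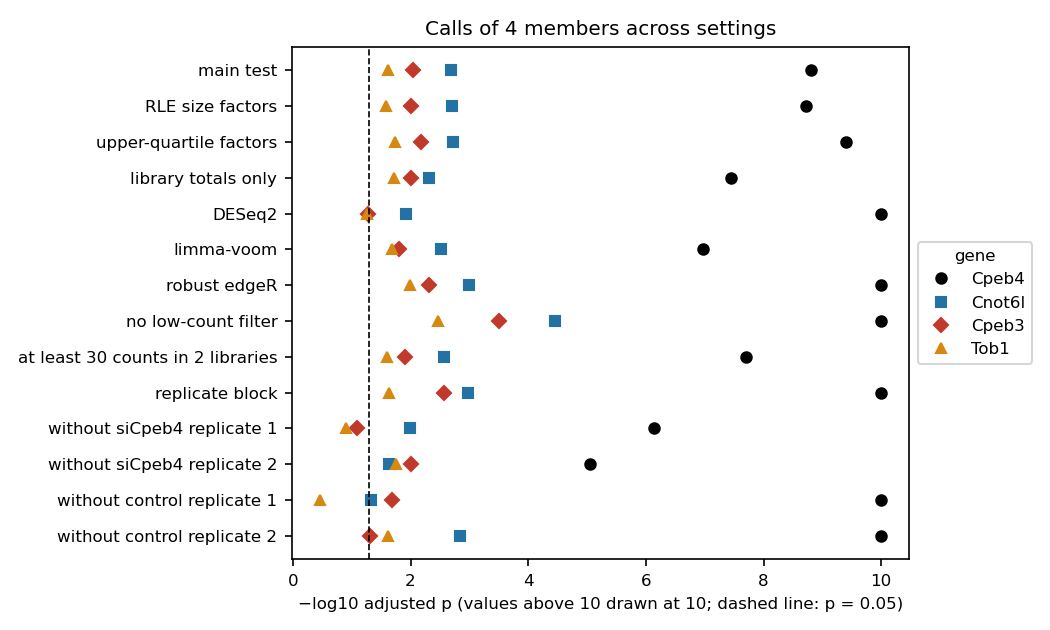
Each row is the main test or an alternative setting, and the horizontal axis gives −log10 of the adjusted p for the 4 called members, with a dashed line at the threshold and values above 10 drawn at 10. Cpeb4 and Cnot6l stay right of the line throughout, whereas Cpeb3 and Tob1 fall left of it in DESeq2 and without siCpeb4 replicate 1, and Tob1 also without control replicate 1.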

How the data were processed

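The authors deposited raw counts of footprints per Ensembl gene, 1 file per library, with no normalisation. The assembly Rnor_6.0 and the tools STAR 2.7, Bowtie2 and HTSeq 0.12 are named in the submitters' processing notes; their roles and the strand setting are not given in the sources used here. Reads that HTSeq assigned to no feature (4.42% to 4.63% of counted reads) or called ambiguous were left out. The members and all gene lists were chosen with earlier results of these data known.

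Levels are CPM, counts scaled to the library total of counts in genes. The test was the two-sided quasi-likelihood F-test of edgeR 4.0.16 (R 4.3.3), with TMM factors, a low-count filter (filterByExpr, minimum count 10), group as the sole covariate, and p adjusted by Benjamini-Hochberg over 11335 genes; an adjusted p under 0.05 was called. Standard errors were derived from the F statistic. Named were all CPEB genes, every called member, and up to 4 members per role with the smallest p (27 in all); other members are given by level, count or range, and of the related lists the called genes and the 2 with the smallest p. Col1a1, Col1a2, Msln, Acta2 and Tagln were named after their values were seen. Alternatives used RLE, upper-quartile or no factors, DESeq2 1.42.0, limma-voom (limma 3.58.1), robust edgeR, other filters, the replicate number as a block and each library left out. The workflow was also run on simulated data. The outcome is not given here and is no support for the results above. Intervals of shares are exact (Clopper-Pearson) at 95% and cover counting error only. Replicates differed by more than sampling noise (chi-square per degree of freedom 5.12 for siCpeb4 and 2.91 for control). Levels per coding length were planned but not computed, since coding lengths were not used here. Without matched mRNA counts, footprint levels are not translational efficiencies.

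Reads mapping to several places were not counted, per the file names, so genes with near-identical copies are uncertain. RefSeq (GRCr8) names a pseudogene copy for 10 members, Pabpc1, Pabpc4, Paip1, Tent2, Cpsf4 and Cnot8 among them, and for none of the 4 called. In the same annotation 28 of the 49 members overlap another gene, Cpeb3 with Marchf5 and Cnot6l with a pseudogene. Cnot6, whose footprints enter the Cnot6l share, overlaps the protein-coding gene Cnot6l2. Reads of such neighbours may be exchanged or dropped.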

Additional observations from a re-analysis of the deposited data

How the results depend on the processing

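The count of called genes was 386 in the main test, 192 in DESeq2, 606 without the low-count filter and 629 at an adjusted p under 0.10. It ran from 212 (without control replicate 1) to 324 with 1 library left out. The count of members called higher was 2, and 0 in DESeq2; with 1 library left out it ran from 0 (without siCpeb4 replicate 1) to 2, and it was 1 without control replicate 1. The count called lower was 2 in every setting run. The replicate number as a block gave 400 calls over all genes and the same 4 members, and changed no call of a named gene. Deviations of same-numbered libraries correlated at -0.11, so the crossed pairing was added after seeing the data; it gave 479 calls, with 2 members higher and 2 lower.

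Over the alternatives of single genes, 396 values kept sign and call, 7 lost the call and 9 changed sign, all of the last in uncalled genes. With 1 library left out, log2 fold changes ran from -0.010 to 0.053 for Pabpc1, from -0.20 to 0.00031 for Paip1, from -0.14 to 0.017 for Paip2, from -0.31 to 0.30 for Pan3, from -0.15 to 0.30 for Parn and from -0.33 to 0.16 for Btg2. Pan3 also gave -0.015 with the replicate block. The log2 fold change of Cpsf4 ran from -0.24 without siCpeb4 replicate 1 to -1.39 without siCpeb4 replicate 2, both uncalled. Such fits take the spread of the lone library from the other group. Why results changed between settings was not tested. The levels per coding length were not run. Genes with few counts, such as Cpeb1, Cpsf4 and Pan3, have the widest errors.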
